A study of Mus musculus with 2 samples.

Results

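Neurotensin-dominant N cells were the enteroendocrine cells of the mouse small intestine in which Nts, the gene of the peptide neurotensin, was the most abundant hormone transcript. A barcode of the droplet assay, which stands for 1 cell, was counted as an N cell when Nts had more unique molecular identifiers (UMIs, each marking 1 captured transcript) than Gip, Gcg, Pyy, Cck, Sst and Ghrl and made up at least 1% of all its UMIs. The barcode also had to hold at least 500 genes and 1000 UMIs, at most 25% mitochondrial UMIs and fewer than 3 UMIs of Neurog3. This gave 245 N cells among 8761 kept cells, 71 in the WT library and 174 in the NFKO library. Among the 1949 cells led by any of the 7 hormones, the others were K cells (Gip), L cells (Gcg or Pyy), I cells (Cck), D cells (Sst) and X cells (Ghrl).

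Both libraries came from Tomato-positive epithelial cells sorted by flow cytometry, in a study of cells descended from Neurog3-expressing endocrine progenitors. WT mice carried Neurog3Cre and the Rosa26tdtomato reporter, and NFKO mice were Neurog3Cre-FoxO1 f/f with the same reporter, so that the Cre and the reporter were shared and only NFKO had 2 floxed FoxO1 alleles. For each library the entire small intestine of 4 to 5 mice, 4 to 6 weeks of age, was pooled after the pancreas had been dissected away. With 1 library per genotype there is no replicate and no test, and WT and NFKO below name the libraries by their labels. Because the Cre is driven by Neurog3, which is also active in progenitors of other secretory cells, the sorted cells were not all endocrine.

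Neurotensin is released from the gut wall after a fatty meal, and it slows stomach emptying and favours the uptake of fat. N cells lie mostly in the distal small intestine and on the villi rather than in the crypts. Single-cell studies place them on a path shared with L cells, in which the hormone set of a cell changes as it moves up the villus, so that Gcg, Pyy, Sct and Nts can be met together in 1 cell. Sct encodes secretin, which drives bicarbonate secretion by the pancreas, and Adgrd1 encodes an adhesion G protein-coupled receptor.

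The stretches of DNA before the genes of both peptides are shown because these transcripts carry the comparison of the N cells. They were taken from the RefSeq promoter windows of GRCm38.p6, in which Nts and Sct were matched by symbol among 3 markers, and they are written 5′ to 3′ on the strand of the gene. The Nts stretch is chr10:102490487-102490668 on the minus strand, 182 bases, from 250 to 69 bases before the RefSeq start; the bases nearer to the start overlap the annotated transcript and are left out. The Sct stretch is chr7:141279134-141279383 on the minus strand, the 250 bases before the start. Capitals mark matches on either strand to an AP-1 motif, a GATA motif, a Onecut core or a TATA box, each sequence on a line of its own.
Nts: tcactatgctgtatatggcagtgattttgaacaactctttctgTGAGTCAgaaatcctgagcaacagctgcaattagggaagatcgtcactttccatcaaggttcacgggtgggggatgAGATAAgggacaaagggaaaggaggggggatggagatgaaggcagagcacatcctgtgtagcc
Sct: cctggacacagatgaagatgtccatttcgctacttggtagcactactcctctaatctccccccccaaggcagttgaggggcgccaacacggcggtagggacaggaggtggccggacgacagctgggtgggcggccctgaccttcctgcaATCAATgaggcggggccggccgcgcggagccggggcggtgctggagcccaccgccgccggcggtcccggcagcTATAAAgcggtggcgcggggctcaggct

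The Nts stretch held the AP-1 motif, spelled TGANTCA in the search, from 207 to 201 bases before the start. It also held the GATA motif, spelled AGATAA, from 131 to 126 bases before the start. The Sct stretch held the TATA box, spelled TATAAA, from 28 to 23 bases before the start. Its Onecut core, spelled ATTGAT, was read on the opposite strand from 101 to 96 bases before the start. Among 32851 RefSeq promoters, the 250 bases before the start held an AP-1 motif in 6.75%, a GATA motif in 9.99%, a TATA box in 12.4% and a Onecut core in 6.72%. E-boxes (CANNTG), the motif bound by basic helix-loop-helix factors such as Neurod1, were present once in the Nts stretch and at 3 places in the Sct stretch, and 66.2% of all promoters held at least 1. No match to the FoxO core GTAAACA, to the cAMP response element TGACGTCA or to the Cdx core TTTATG was found in the 250 bases of Nts or Sct. These matches describe the letters only.

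Foxo1 carries the floxed alleles and came first, to check the labels. The gene (ENSMUSG00000044167, GRCm38 chromosome 3, 52268336 to 52353221, plus strand) had 15 UMIs in WT N cells and 35 in NFKO N cells. These are 23.7 CPM (UMIs per 1000000 UMIs of the N cells; 95% interval 13.2 to 39.0) and 14.1 CPM (9.79 to 19.5), a ratio of NFKO over WT of 0.594 (0.316 to 1.17). A loss of Foxo1 transcripts was thus not detectable at this depth in N cells, in which Foxo1 was seen in 13 and 31 cells. Foxo3 had a ratio of 0.996 (0.505 to 2.14) and Foxo4 of 0.605 (0.253 to 1.60). The counts come from the 3′ end of the mRNA, and whether that end lies in the deleted part is not given in the sources used here, so they may check nothing. For sorted Tomato-positive cells, the paper that described these mice reported a significant fall of FoxO1 expression in NFKO and no change of FoxO3 and FoxO4.

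All intervals below are exact 95% intervals that cover counting error only. Differences between cells, mice, sorts and libraries are outside them, so intervals of groups of few cells are too narrow. The 2 matrices held 5051 and 7540 barcodes, of which 3129 and 5632 passed the filters, and 6 barcode sequences occurred in both libraries, 0 of them N cells. N cells held 634244 UMIs in WT and 2489942 in NFKO, so that 3 UMIs, the limit a count of 0 allows, correspond to 4.73 and 1.20 CPM. The libraries also differed in the sex of the mice: by Y-linked transcripts and Xist, 51 WT N cells were male and 0 female, while 128 NFKO N cells were female and 13 male. Genotype, sex and library therefore cannot be told apart, and values from male-typed cells are given where they bear on a result.

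The label of the cells was checked against their markers. Of the 3 markers, Nts was present by the rule and checks nothing, and Sct and Adgrd1 were seen in N cells of both libraries. Each of the 10 pan-endocrine genes (Chga, Chgb, Neurod1, Pcsk1, Cpe, Scg5, Pcsk1n, Fev, Rfx6, Isl1) was detected in both, and every N cell held at least 1 of their transcripts. Adgrd1 (ENSMUSG00000044017, chromosome 5, 129096750 to 129204599, plus strand), which the rule did not use, had 520 CPM in WT N cells (466 to 580) and 347 CPM in NFKO N cells (325 to 371). It was low in the other classes, with 6.83 and 5.18 CPM in L cells, 6.32 and 2.22 CPM in I cells and 4.49 and 1.94 CPM in K cells, and 0 UMIs in WT D and X cells. The markers were chosen with earlier results of these data known, so they are not an independent check of the label. By these values Adgrd1 marked the N cells among the hormone-dominant cells of both libraries, although 13 WT and 77 NFKO N cells held none of its UMIs.

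Sct did not set N cells apart from the other classes in that way. Sct (ENSMUSG00000038580, chromosome 7, 141278330 to 141279133, minus strand) had 13438 CPM in WT N cells, beside 16872 CPM in L cells and 34133 CPM in I cells. In NFKO it had 55160 CPM in N cells, 47839 CPM in L cells and 52749 CPM in I cells. Relative to all other hormone-dominant cells, Sct in N cells was 0.750 times as high in WT (0.734 to 0.767) and 1.55 times as high in NFKO (1.54 to 1.56).

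**Figure D1:**
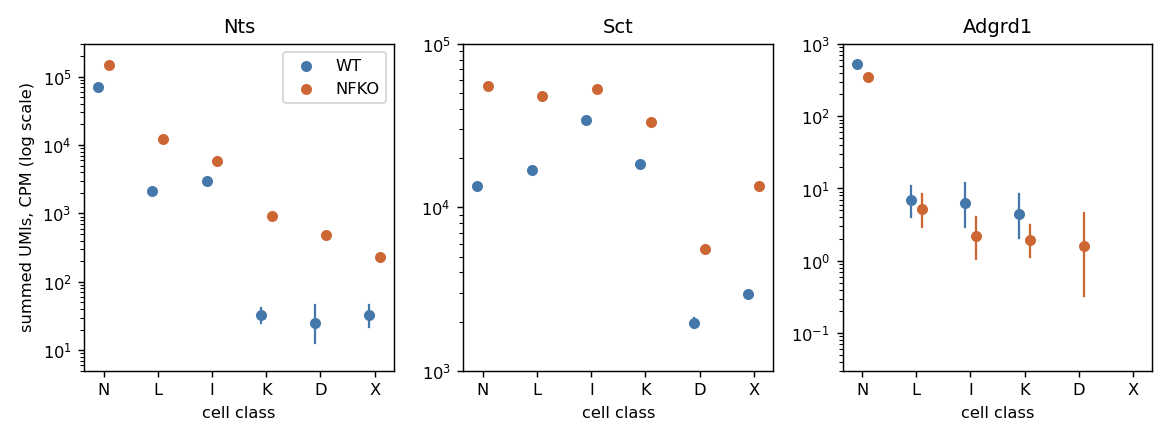
Levels of Nts, Sct and Adgrd1 in CPM (log scale) in N, L, I, K, D and X cells of the WT and NFKO libraries, with exact 95% Poisson intervals. Adgrd1 is far higher in N cells than in any other class of either library, and classes with 0 UMIs (D and X of WT, X of NFKO) have no point; Nts is shown although it chose the N cells.

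The values that chose the cells were as follows and carry no test. Nts (ENSMUSG00000019890, chromosome 10, 102481756 to 102490486, minus strand) made up 1.05% to 26.5% of the UMIs of a WT N cell, with a median of 4.82%, and 1.38% to 41.4% in NFKO, with a median of 11.1%. Just inside the limit of 1% lay WT cells at 1.05%, 1.08% and 1.46% and NFKO cells at 1.38%, 1.49% and 1.89%. Just outside it lay cells at 0.726%, 0.568% and 0.334% in WT and at 0.887%, 0.498% and 0.486% in NFKO, so that few cells fell near the limit. By the other condition, 17 WT and 86 NFKO cells held 1% or more of Nts but more of another hormone. In 11 WT and 49 NFKO members Nts was less than 2 times the next hormone, and the smallest Nts-to-next ratio inside was 1.07 and 1.01.

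Nts transcripts were also met outside the hormone-dominant cells. In goblet reference cells, which held Muc2 and no pan-endocrine transcripts of Chga, Chgb or Neurod1, Nts had 14.2 CPM in WT and 118 CPM in NFKO. When every cell was reduced to 2000 UMIs, an average of 4.21% of these goblet cells in WT and 28.2% in NFKO kept an Nts UMI, against 15.9% and 59.4% of L cells and 29.1% and 45.8% of I cells. Without that reduction the goblet shares were 31.3% and 78.5%, at median depths of 24584 and 17792 UMIs. How much of this was free RNA was not tested. The N cells with the fewest Nts UMIs held 51 in WT and 57 in NFKO, a level that the rule itself sets. Adgrd1 had 2 UMIs in the goblet cells of each library, but it was also far less abundant in N cells. There it had 520 CPM in WT and 347 CPM in NFKO, against 71082 and 145501 CPM of Nts. The goblet counts therefore do not show that Adgrd1 was more confined to N cells than Nts.

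N cells made up 2.27% of the kept cells in WT (71 of 3129, exact binomial interval 1.78 to 2.85) and 3.09% in NFKO (174 of 5632, 2.65 to 3.58). The ratio of the shares was 1.36 (1.03 to 1.82), and as a share of hormone-dominant cells, 11.1% against 13.3%, it was 1.19 (0.898 to 1.59). Raising the limit to 5% of UMIs left 34 WT and 135 NFKO cells and a ratio of 2.21 (1.51 to 3.32), whereas asking that Nts be 2 times the next hormone gave 1.16 (0.844 to 1.60). Among male-typed cells the shares were 2.01% and 3.55%, a ratio of 1.77 (0.883 to 3.30) that rests on 13 NFKO cells.

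The N cells of both libraries differed in depth and in the make-up of their RNA. A WT N cell held 2479 to 39064 UMIs with a median of 5019, and an NFKO N cell 1004 to 78070 with a median of 13886. Gm42418, Gm26917 and Lars2, transcripts that take up ribosomal RNA reads in mouse droplet data, together made up a median of 13.0% of the UMIs of a WT N cell (0.824% to 51.8%) and 1.15% of an NFKO N cell (0.134% to 22.9%). WT was higher at both depths, and shallow cells were higher in both libraries: in the 44 WT N cells under 10000 UMIs Gm42418 had 222508 CPM, and in the 27 deeper ones 28661 CPM, against 35438 and 6705 CPM in the 79 and 95 NFKO N cells of these depths. Comparisons between the libraries are therefore also given for the cells with 10000 or more UMIs, a limit chosen after these values were seen.

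Transcripts of other cell types were also present in N cells. The 10 goblet markers summed to a median of 0.325% of UMIs in WT N cells (0.105% to 11.9%) and 0.783% in NFKO N cells (0.164% to 17.9%), and none of them was at 0 in either library. The 10 pan-endocrine genes had medians of 0.825% and 0.663%, so the goblet median lay below theirs in WT and above it in NFKO. Over all UMIs of the N cells, goblet markers made up 1.69% and 2.27%, and pan-endocrine genes 0.887% and 0.733%. The 11 Paneth markers had medians of 0.213% and 0.224%, with highest cells of 1.65% and 7.06%, and the 11 absorptive markers medians of 0.297% and 0.306%, with highest cells of 3.50% and 13.9%. Tuft, cycling and immune markers had medians of 0. Of the pancreas list, Ins1 was at 0 in both libraries and Ins2 had 0 UMIs in WT and 1 in NFKO. How much of the goblet signal was free RNA was not tested.

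A set of 19 NFKO members, and 0 of WT, held Sst at 1% or more of their UMIs, and these cells looked alike. They held 1182 to 5678 UMIs, 57 to 169 of Nts, 29 to 112 of Sst and 20 to 57 of Pyy, so that the ratio of Nts to Sst stayed between 1.06 and 2.17. Goblet markers made up 7.45% to 14.7% of their UMIs and Paneth markers 1.18% to 7.06%, and Adgrd1 was found in 0 of them. Across the NFKO library, 23 kept barcodes, and 0 in WT, held at least 20 Sst, 15 Pyy and 30 Nts UMIs together. Sst UMIs were more widespread in that library than in WT. At 2000 UMIs, 22.1% of NFKO N cells and 10.6% of NFKO goblet reference cells held one, against 3.60% and 1.72% in WT. The NFKO N cell share includes the members of the set that held at least 2000 UMIs. Without the set, which was chosen after its values were seen, the ratio of the N cell shares was 1.22 (0.913 to 1.64).

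**Figure D2:**
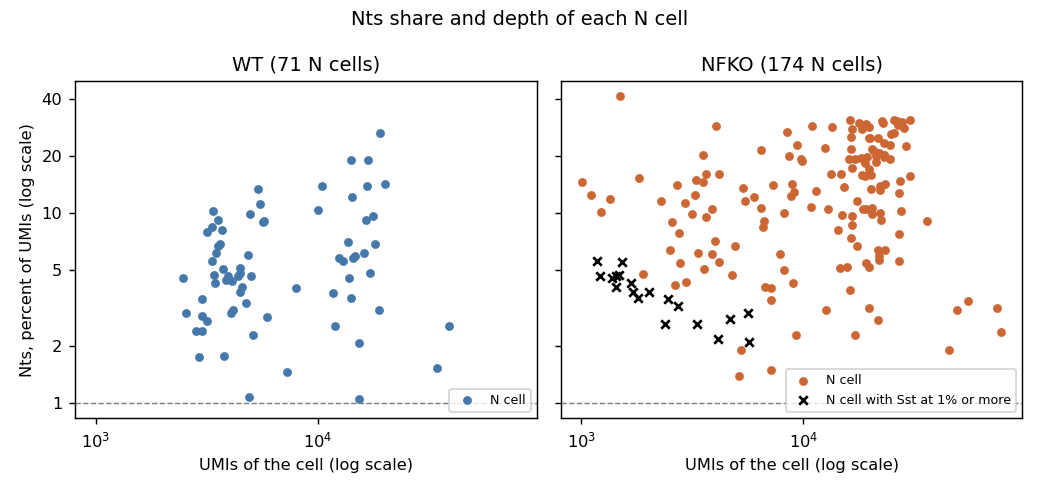
Share of UMIs that were Nts (percent, log scale) against the total UMIs of the cell (log scale) for each of the 71 WT and 174 NFKO N cells. WT cells cluster at low depth around a median of 4.82%, NFKO cells reach 41.4%, the crosses are the 19 NFKO cells with Sst at 1% or more, and the dashed line is the limit of 1%.

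The genes that stood out in N cells against the other hormone-dominant cells were compared next, in each library on its own. Among 8145 genes with at least 100 UMIs over both classes in each library, 111 (1.36%) were at least 2 times as high in N cells in both libraries and 233 (2.86%) at most 1/2 as high. Against L cells alone, 50 genes (1.06%) were at least 2 times as high and 57 (1.2%) at most 1/2, among 4736 genes, and against I cells alone 28 (0.828%) and 40 (1.18%) among 3381. The 7 hormones and Neurog3, which the rule used, were left out of these counts.

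Adgrd1 led the list, with 109 times the level of the other hormone-dominant cells in WT (76.9 to 159) and 151 times in NFKO (112 to 208). Rassf9, a Ras-association domain protein, came next with 94.6 CPM in WT and 113 CPM in NFKO, against 1.64 and 1.65 CPM in the other cells, ratios of 57.9 (30.8 to 118) and 68.8 (47.9 to 102). Rassf9 is the neighbour of Nts on chromosome 10: it starts at 102512222 on the plus strand, 21735 bases from the end of Nts on the minus strand, with 0 annotated genes between them. Uchl1, a deubiquitinating enzyme of neurons and endocrine cells, was 19.0 times as high in WT (11.3 to 32.6) and 17.3 times in NFKO (14.1 to 21.2). Car4, a membrane-bound carbonic anhydrase, was 23.9 times as high (18.0 to 32.0) and 16.1 times (11.8 to 22.1).

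Receptors and signalling genes made up much of the remainder of the 15 leading genes. Pde3a, a phosphodiesterase that breaks down cAMP, was 11.6 and 11.5 times as high in WT and NFKO, and Nt5e, the CD73 enzyme that makes adenosine from AMP, 7.60 and 9.58 times. Grpr, the receptor of gastrin-releasing peptide, was 7.23 and 10.2 times as high, and Ret, the receptor tyrosine kinase of the glial cell line-derived neurotrophic factor family, 4.04 and 3.71 times. Pfkfb3, a regulator of glycolysis, was 5.96 and 3.81 times as high. Prss30, Col8a1, S100a14, Serpina1e and Cyp2c65 were also in the list, with ratios between 3.47 and 7.67, of which Serpina1e and Cyp2c65 belong to families of close copies whose reads may be shared.

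The 10 genes at the low end were of mixed kind. Nnat, which encodes neuronatin, had 0 UMIs in WT N cells against 197 CPM in the other cells (ratio up to 0.0296), and 6.83 CPM against 399 CPM in NFKO (0.0171). Iapp, the gene of amylin, had 3 UMIs in WT N cells, all in 1 cell, and 31.7 CPM in NFKO against 1006 CPM in the other cells (0.0315, 0.0250 to 0.0393). Both lie high in classes other than I cells: against I cells alone the Nnat ratio in NFKO was 1.18 and the Iapp ratio in WT 2.24. The cannabinoid receptor Cnr1 had ratios of 0.0453 and 0.0551, the ghrelin acyltransferase Mboat4 0.0275 and 0.0894, the potassium channel Kcnk16 0.0689 and 0.121, and the BMP pseudoreceptor Bambi 0.0728 and 0.124. Pkib, Cd177, Cd44 and Fabp1 had ratios between 0.0428 and 0.129.

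**Figure D3:**
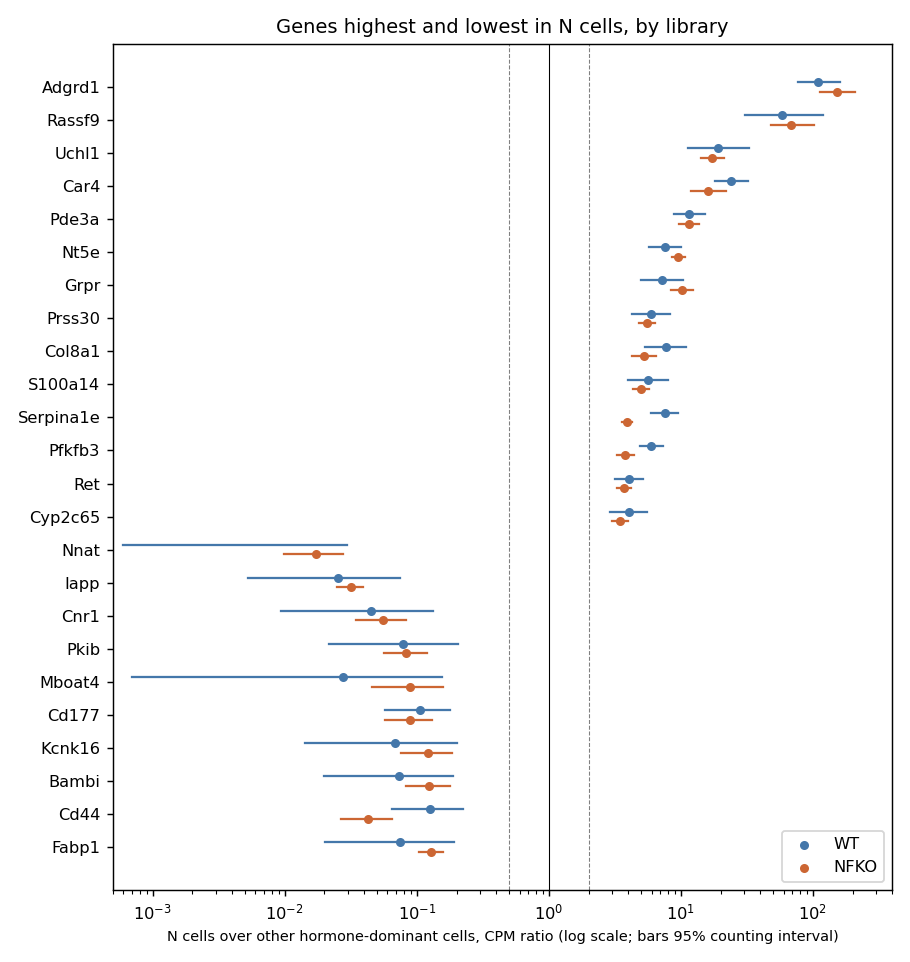
Ratio of the CPM in N cells to that in the other hormone-dominant cells (log scale) for 14 of the 15 highest and the 10 lowest genes by the naming rule, WT and NFKO side by side with exact 95% intervals and dashed lines at 1/2 and 2. Adgrd1 and Rassf9 lie above 50 in both libraries; Nnat had 0 UMIs in WT N cells, so only its interval is drawn.

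Among the listed endocrine transcription factors, 1 of 30 was at least 2 times as high in N cells of both libraries and 9 were at most 1/2 as high, beside 1.36% and 2.86% of all genes. The median log2 ratio of this list was -0.24 in WT and -0.49 in NFKO, beside -0.10 and -0.12 over all genes counted. The 1 that was higher was Klf4, at 2.05 and 2.31 times. The 9 lower factors included Nkx2-2 (0.389 and 0.221), Rfx6 (0.429 and 0.241) and Isl1 (0.365 and 0.280), which act in endocrine differentiation, and Foxa2, Pdx1, Rfx3, Hhex and Zcchc12. Onecut3 was 3.48 times as high in WT and 1.77 times in NFKO, and Neurod1, a factor of all endocrine classes, 1.60 and 1.41 times. The N cells thus shared the general factor Neurod1 and had less of several others than the remaining hormone-dominant cells summed. That need not hold against each class, since Pdx1 turned to higher in N cells of WT against L cells alone.

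Few genes of the secretory machinery were called by class, where 1.36% of all genes were higher and 2.86% lower. Of 12 granin and prohormone processing genes 0 were at least 2 times as high and 1, Chgb, was at most 1/2 (0.457 and 0.344), while the other granin Chga was 1.79 and 2.10 times as high. Of 24 exocytosis genes, Rab3b was 7.71 and 3.15 times as high and Cplx1 0.210 and 0.106 times. Of 10 nutrient and bile acid sensors, Gpr119, a receptor of fat-derived lipids, was at most 1/2 (0.177 and 0.173). Ffar1, the receptor of long-chain fatty acids, had 484 and 422 CPM in N cells, 1.56 and 1.91 times the other cells.

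Receptors, channels and regional genes gave a few further marks of the class. Over all genes, 1.36% were at least 2 times as high in N cells of both libraries and 2.86% at most 1/2. Of 11 hormone and neural receptors, Sstr1, a somatostatin receptor, was higher beside Adgrd1 (2.54 and 3.04 times), and Avpr1b, Cnr1 and Igf1r were at most 1/2. Of 20 ion channels, the sodium channel subunit Scn3b was 3.56 and 2.90 times as high, and Asic5, Abcc8 and Kcnk16 were at most 1/2. Of 14 regional genes 1 was at least 2 times as high. The 2 at most 1/2 were Pdx1 and Fabp1, which are known from the proximal small intestine. Against L cells alone these values turned in WT, to 2.61 for Pdx1 and 1.43 for Fabp1. Of 8 Notch pathway genes, Jag2 (3.43 and 2.27) and Hes1 (2.14 and 2.70) were higher, although without its top cell the WT ratio of Hes1 was 0.679.

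Beside Nts, N cells held other hormones, and the one next to Nts was recorded as the accompanying hormone where it made up 1% or more of the UMIs. In WT 23 of 71 N cells had one (32.4%, 21.8 to 44.5) and in NFKO 89 of 174 (51.1%, 43.5 to 58.8), a ratio of 1.58 (0.989 to 2.62). In WT it was Gcg in 12 cells, Cck in 7, Pyy in 2, Gip and Ghrl in 1 each and Sst in 0. In NFKO it was Pyy in 35 cells, Cck in 25, Sst in 17, Gcg in 6, Ghrl in 5 and Gip in 1. Gcg, the gene of the glucagon-like peptides, was thus the most frequent companion in WT, and Pyy, the gene of peptide YY, in NFKO. Without the 19 cells with Sst at 1% or more, 70 of 155 NFKO cells had one, and the ratio was 1.39 (0.860 to 2.34).

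The summed levels of these hormones, from the same UMIs that named the companions, were as follows. Pyy had 1014 CPM in WT N cells and 11617 CPM in NFKO N cells, a ratio of 11.5 (10.6 to 12.4), beside 1.74 in L cells. Gcg had 7412 and 2231 CPM, a ratio of 0.301 (0.289 to 0.313), beside 0.738 in L cells. Cck had 6931 and 7330 CPM, a ratio of 1.06 (1.02 to 1.09). In cells with 10000 or more UMIs the Pyy ratio was 14.7 and the Gcg ratio 0.250, and in male-typed cells the Gcg ratio was 0.0368. Pyy was concentrated, since 7 NFKO cells held more than 1/2 of its UMIs in the library's N cells, and the WT value rests on 643 UMIs.

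The NFKO N cells with Pyy as accompanying hormone are described here with genes chosen after their values were seen. These 35 cells were set beside the 85 NFKO N cells without an accompanying hormone. Sct was 2.61 times as high (2.58 to 2.65), with a median of 8.20% of the UMIs of a cell against 3.44%. Gcg was nearly absent, with a median of 0 and a highest value of 4 UMIs. Several genes that marked N cells as a class were low: Adgrd1 had 76.1 against 523 CPM (0.146, 0.101 to 0.204) and was seen in 6 of 35 against 73 of 85 cells. Pde3a was 0.0626 times as high, Car4 0.0886, Uchl1 0.105 and Rassf9 0.310, and Onecut3, which passed 2-fold by class in WT alone, 0.0587. The 2 WT N cells with Pyy had 4.28 times the Sct (3.92 to 4.67) and, with 1 UMI, 0.153 times the Adgrd1 (0.00385 to 0.860) of WT cells without an accompanying hormone.

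Other genes were high in the Pyy-accompanied cells. Drd4, the D4 dopamine receptor, had 224 against 4.30 CPM, a ratio of 52.2 (23.2 to 145), and was seen in 21 of 35 against 3 of 85 cells. Drd4 (chromosome 7, 141292006 to 141296464, plus strand) is the neighbour of Sct, 12872 bases away with 0 annotated genes between them. Hamp, the gene of the iron-regulating peptide hepcidin, had 256 against 10.0 CPM (25.5, 14.6 to 48.1) and was seen in 13 against 8 cells. Ppy, the gene of pancreatic polypeptide, had 117 UMIs in 5 of the 35 cells, 58 of them in 1 cell, and 0 UMIs in the 85. Isl1 did not differ beyond counting error (0.996, 0.767 to 1.28). Drd4 and Hamp were not particular to N cells: L cells of NFKO had 81.3 CPM of Drd4 and 68.0 CPM of Hamp, against 57.4 and 56.6 CPM over all NFKO N cells.

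Depth moved with these groups, since the median Pyy-accompanied cell held 8760 UMIs and the median cell without an accompanying hormone 16418. Among NFKO N cells with 10000 or more UMIs, Adgrd1 was seen in 7 of the 21 with Pyy at 1% or more and in 61 of the 74 with less, and Drd4 in 14 and 6 of them. Adgrd1 had 75.7 and 420 CPM in these deep cells. Adgrd1 was thus low where Pyy was high within the deep cells as well. In WT only 1 deep N cell held Pyy at 1% or more, so it could not be looked at there.

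Cck-accompanied N cells shared some of this profile and not the rest. In NFKO, the 25 such cells had 2.34 times the Sct of cells without an accompanying hormone and 0.248 times the Adgrd1 (0.182 to 0.331), and in WT the 7 such cells had 2.05 times the Sct and 0.0746 times the Adgrd1 (0.0201 to 0.194). Onecut3 was 1.39 times as high in NFKO and 2.29 times in WT. Rassf9 was at 0.190 times in NFKO, and in WT it had 0 UMIs against 32. High Sct with low Adgrd1 and low Rassf9 was therefore seen in both libraries, whereas Drd4 in the NFKO cells lay in 4 of 25, with 22 of its 26 UMIs in 1 cell.

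Gcg-accompanied N cells differed from both. In WT these 12 cells had 0.489 times the Sct (0.459 to 0.520) and 0.796 times the Adgrd1 (0.625 to 1.01) of the 48 cells without an accompanying hormone, and Adgrd1 was seen in 11 of 12. Fst, the activin-binding protein follistatin, was 4.58 times as high (2.82 to 7.69) and seen in 12 of 12 against 11 of 48 cells. Car4 was 2.93 times as high, the transcription factor Etv1 2.26 times and the fatty acid receptor Ffar1 1.49 times. In the 6 NFKO cells with Gcg, Fst was 2.79 times as high (1.13 to 5.98), whereas Car4 had 5 UMIs, all in 1 cell, a ratio of 0.784 (0.249 to 1.89). These 6 cells had 0.373 times the Sct, 0 UMIs of Adgrd1, 2.52 times the Etv1 and 13.3 times the Hoxb9 (8.18 to 21.6, in 3 cells). The median WT Gcg-accompanied cell was deeper (16684 UMIs) than the median WT cell without an accompanying hormone (4097), and its part in these values was not tested.

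**Figure D4:**
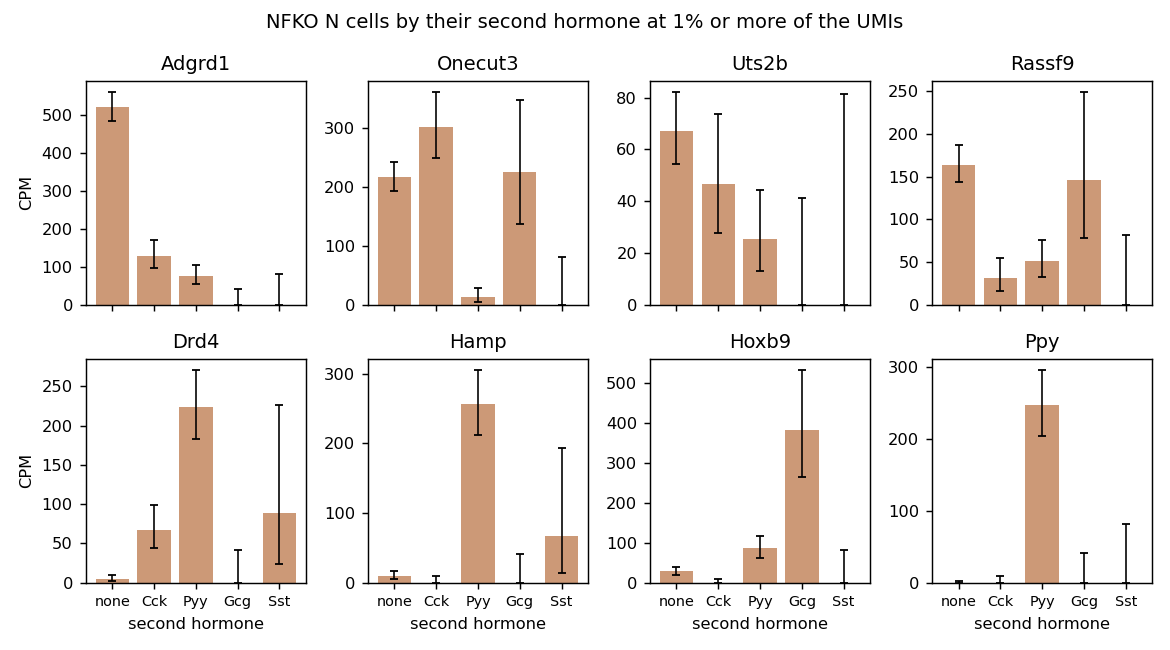
CPM with exact 95% Poisson intervals of Adgrd1, Onecut3, Uts2b, Rassf9, Drd4, Hamp, Hoxb9 and Ppy in NFKO N cells, grouped by accompanying hormone (none, Cck, Pyy, Gcg or Sst; bars start at 0). Adgrd1 is highest without an accompanying hormone at 523 CPM, and Drd4, Hamp and Ppy are highest with Pyy at 224, 256 and 247 CPM.

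N cells of NFKO were then compared with those of WT over all genes. Among 4422 genes with at least 100 UMIs in N cells, 468 (10.6%) were at least 1.5 times as high in NFKO and 677 (15.3%) at most 1/1.5, with a median log2 ratio of -0.04. In cells with 10000 or more UMIs these were 266 (6.96%) and 688 (18%) of 3822 genes, with a median of -0.16. The share of called genes that were higher, 40.9%, moved with the scaling, from 21.7% when Gm42418, Gm26917, Lars2 and mitochondrial genes were taken out of the total to 62.2% when each cell was given the same weight, so that no direction is drawn from these counts.

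The markers differed between the libraries in different ways. Sct was 4.10 times as high in NFKO N cells (4.02 to 4.20), 5.20 times in deep and 4.94 times in male-typed cells. It was also higher in NFKO in L cells (2.84), in I cells (1.55) and over all other hormone-dominant cells (1.98). Nts, which the rule used, was 2.05 times as high. Adgrd1 had a ratio of 0.668 (0.587 to 0.760), but 0.974 in cells with 10000 or more UMIs, so that its difference rested on the shallow cells, where WT had 935 CPM and NFKO 382 CPM.

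The 10 genes named as highest in NFKO N cells by the rule included Drd4, Hamp and Uts2b, which were close to absent from WT N cells. Uts2b, the gene of the urotensin-related peptide, had 1 UMI in WT and 132 UMIs in 42 NFKO N cells, a ratio of 33.6 (5.93 to 1338). In NFKO it was 53.1 times as high in N cells as in the other hormone-dominant cells (33.0 to 89.8), and it was seen in 28 of 85 cells without an accompanying hormone, 8 of 25 with Cck, 4 of 5 with Ghrl and 2 of 35 with Pyy. Drd4 had 1 and 143 UMIs, a ratio of 36.4 (6.43 to 1449), and Hamp 0 and 141 UMIs, at least 12.0 times as high against a floor of 3 UMIs over the WT N cells. Drd4 and Hamp were also higher in NFKO in L cells, at 4.93 times (3.53 to 7.04) and 4.03 times (2.88 to 5.75). Of the 42 NFKO N cells with Uts2b 40 were not Pyy-accompanied, of the 32 with Drd4 11 were not, and 5 cells held both. The 35 Pyy-accompanied NFKO cells held 106 of the 143 Drd4 UMIs and 121 of the 141 Hamp UMIs. WT had 2 such cells, with 9841 UMIs in all, and the part of this mix of cells in the ratios was not tested.

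The remaining genes of that group were of mixed kind. S100a6, a calcium-binding protein, had 89.9 and 528 CPM, a ratio of 5.87 (4.50 to 7.80), and 5.04 in L cells. Crp, an acute-phase protein, had a ratio of 8.72 (3.33 to 32.5), and Cltrn, the amino acid transporter partner collectrin, of 6.95 (3.83 to 14.1) beside 1.30 in L cells. For others a single cell held much of the signal: 215 of 474 NFKO UMIs of Reg4 and 128 of 179 of S100g were in 1 cell, and 971 of 1121 WT UMIs of Zg16, a goblet gene. Reg4 and Zg16 also turned in male-typed cells, to 0.607 and 0.256. Gm10260, a predicted protein-coding gene, had 1 and 144 UMIs, and was as unequal outside N cells, with a ratio of 120 over the other hormone-dominant cells.

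Stress-response genes and ribosomal-RNA-like transcripts filled most of the list of genes lower in NFKO. Hspa1b and Hspa1a, inducible Hsp70 genes and close copies of each other, had ratios of 0.0692 and 0.111, Dnajb1 0.167 and Hsph1 0.213. Of 20 heat shock and immediate early genes counted, 12 were at most 1/1.5 in NFKO and 1, Areg, was at least 1.5 times as high. Over all genes, 15.3% were at most 1/1.5 and 10.6% at least 1.5 times as high. The list median was -0.64 on the log2 scale, beside -0.04 over all genes. In cells with 10000 or more UMIs 16 of the list were lower and 1 was higher of 19. The Hspa1b ratio was 0.0320 in L cells and 0.189 in I cells, so this lay outside N cells too. Gm42418, Gm26917 and Lars2 had ratios of 0.127, 0.111 and 0.110, and 0.234, 0.404 and 0.253 in the deep cells.

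Fst and Car4 were the lower genes with no part in the stress response. Fst had 151 CPM in WT and 24.5 CPM in NFKO N cells, a ratio of 0.162 (0.115 to 0.225), and 0.132 in deep and 0.0792 in male-typed cells. In L cells its ratio was 0.502. Car4 had 241 and 51.4 CPM, a ratio of 0.213 (0.167 to 0.271), with 0.184 in deep and 0.216 in male-typed cells. In WT both were high in the Gcg-accompanied cells, which were 12 of 71 N cells there and 6 of 174 in NFKO, and the part of these cells in the ratio was not tested. Fabp6, the ileal bile acid binding protein, was also among these genes, but 501 of its 548 WT UMIs lay in 1 cell and the ratio of 0.0135 was 0.119 without the top cells.

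**Figure D5:**
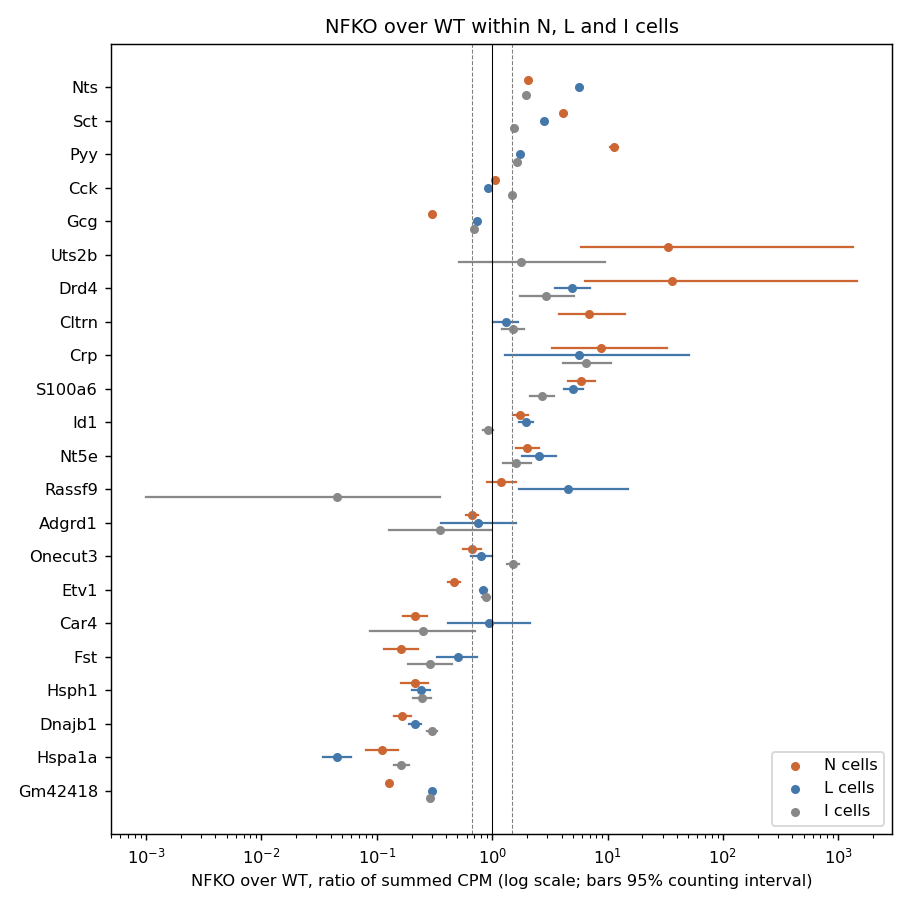
Ratio of NFKO over WT (log scale) with exact 95% intervals for named genes in N cells, and beside them in L and I cells, with dashed lines at 1.5 and 1/1.5. Fst and Car4 lie below 1/1.5 in N cells, at 0.162 and 0.213; Uts2b has no point in L cells because it had no UMI in WT L cells.

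Among the endocrine transcription factors, 2 of 25 were at least 1.5 times as high in NFKO N cells and 7 at most 1/1.5, beside 10.6% and 15.3% of all genes, with a median of -0.41 beside -0.04. Onecut2 (2.27, 1.55 to 3.46) and Foxa3 (1.68) were higher. Rfx6 (0.398, 0.282 to 0.565), Etv1 (0.464), Nkx2-2 (0.515), Onecut3 (0.664), Mlxipl, Tox3 and Nr4a1 were lower. In deep cells 1 was higher and 10 were lower of 25. Rfx6 and Nkx2-2 thus had the low value in both comparisons, N cells against other classes and NFKO against WT.

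Of the genes of hormone processing and release, Qpct, an enzyme that forms the pyroglutamate end of peptides such as neurotensin, was 3.63 times as high in NFKO (2.49 to 5.49), and 5.67 times in deep cells. Pcsk1n, an inhibitor of prohormone convertase, was 1.83 times as high, and Chgb 0.625 times (0.594 to 0.657). The other 9 of 12 processing genes counted lay within 1.5-fold. Of 19 exocytosis genes, the calcium sensor Syt7 (1.89, 1.56 to 2.29) and Ptprn (1.66) were higher and 8, among them Syt13 (0.627) and Rab27a (0.666), were lower, with a median of -0.45. Over all genes, 10.6% were higher and 15.3% lower, with a median of -0.04. The exocytosis counts moved to 3 higher and 5 lower with the top cell left out. Without Gm42418, Gm26917, Lars2 and mitochondrial genes in the total, 1 was higher and 10 were lower. Ptprn turned to 0.712 in male-typed cells.

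Of 7 nutrient sensors and transporters counted, 3 were at most 1/1.5 and 0 were at least 1.5, beside 15.3% and 10.6% of all genes. With each cell given the same weight, or with the 7 hormones and mitochondrial genes out of the total, 2 were lower and 1 was higher. Among the 3 were the glucose transporter Slc5a1 (0.448, 0.373 to 0.539) and the short-chain fatty acid receptor Ffar2 (0.521). Of 7 ion channels, Scn3a (0.402), Cacna1a (0.596) and Cacna1h were at most 1/1.5 and 0 were at least 1.5. In deep cells 2 of 7 and 2 of 6 genes of these lists were at most 1/1.5. The somatostatin receptor Sstr1 was 1.90 times as high (1.27 to 2.95).

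Of the listed FoxO targets, 1 of 13 was at least 1.5 times as high in NFKO N cells and 6 were at most 1/1.5, beside 10.6% and 15.3% of all genes, with a median of -0.48 beside -0.04. Cdkn1a, the cell cycle inhibitor p21, was 2.22 times as high (1.88 to 2.64). Txnip (0.509, 0.418 to 0.622), Klf2 (0.400), Cited2 (0.475), Insr (0.655), Gadd45a and Gadd45b were lower. In deep cells 1 was higher and 4 were lower of 10, and with each cell given the same weight 3 were higher and 5 lower of 13, with a median of -0.05. The immediate early genes, several of which respond to tissue handling, were also lower in NFKO, and their part in this list was not tested.

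Genes of BMP response and of position along the gut were few but uneven. Over all genes, 10.6% were at least 1.5 times as high in NFKO and 15.3% at most 1/1.5. Id3 was 2.88 times as high in NFKO (2.35 to 3.56) and Id1 1.75 times (1.51 to 2.05), and 0 of 6 BMP genes were lower. In male-typed cells 4 of the 6 were higher and 1 was lower. Id1 was low in the Gcg-accompanied cells, with 0.308 times the level of cells without an accompanying hormone in WT and 0.0245 times in NFKO. Of 10 regional genes, Hoxb9 was 7.32 times as high (2.78 to 27.3), in 3 WT and 13 NFKO cells, and Onecut2 was the other of the 2 that were at least 1.5 times as high. Adh1 (0.362), Osr2 (0.628) and Fabp6 were among the 4 at most 1/1.5.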

How the data were processed

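The authors prepared both libraries with the 10x Genomics 3′ kit from sorted Tomato-positive cells. The deposited values are raw counts of UMIs for 32285 genes per barcode, made with Cell Ranger 5.0.1 on the mouse build mm10 per the submitters' processing notes; the annotation and the authors' filters on barcodes are not given in the sources used here. A UMI counts PCR copies of a molecule once.

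Cells were filtered and chosen as the report states. Members and gene lists were chosen with earlier results of these data known. Counts were summed per cell class and library and given as CPM, with exact Poisson, Clopper-Pearson or conditional binomial intervals at 95%; ratios are NFKO over WT or N cells over others. A gene was counted with at least 100 UMIs and called at 1.5-fold between libraries or 2-fold between classes. With 1 library per group no test was made and no p-value was computed. N cell counts were also simulated for 4271 genes, 200 of them changed 2-fold. They were drawn as Poisson counts without differences between cells, the model behind the intervals, so the coverage was set in advance. This checks the calculation only and does not show that the intervals hold for real cells. Of the intervals, 95.95% held the true ratio, 172 of the changed genes were called in the right direction and 121 unchanged genes were called.

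Named genes had at least 50 CPM. For N cells over other cells the 15 highest by the smaller and the 10 lowest by the larger of the 2 ratios were taken, and between libraries the 10 highest and lowest after the top cell of each library had been left out, among genes seen in at least 10% of the N cells. The 50 CPM of the low list was first asked of N cells, which named, among others, Rbp2, Fabp5, Ddc, Cdkn1c, Lyz1, Defa24, Isl1, Cers6 and Abcc8, and after that list had been seen it was asked of the other cells. Mitochondrial genes, Xist and Y-linked genes were left out, and some genes that the rule or the lists name are not reported here.

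Shares of cells with a transcript at 2000 UMIs are exact averages over all ways to draw 2000 UMIs from a cell, and left out 17 NFKO N cells under that depth. Goblet reference cells held at least 5 Muc2 UMIs. Cells were typed as male with a UMI of Ddx3y, Eif2s3y, Kdm5d or Uty and 0 of Xist. Doublets were not removed from the values above. An alternative removed the cells with the highest doublet scores, at 0.8% per 1000 barcodes, 126 WT and 340 NFKO cells with 3 and 16 N cells among them. The scores follow the method of Scrublet, written out because the package did not run, and its settings were adjusted on simulated doublets, of which 98 of 200 in WT and 105 of 200 in NFKO were taken. Gene positions are from GENCODE M21 on GRCm38. Python 3.11.15, numpy 2.4.6, scipy 1.17.1, pandas 2.3.3 and scikit-learn 1.9.0 were used.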

Additional observations from a re-analysis of the deposited data

Results flagged for a closer look

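Sct differed in its place among the classes between the libraries. In WT it was lower in N cells than in the other hormone-dominant cells, with a ratio of 0.750 (0.734 to 0.767), and in NFKO it was higher, with a ratio of 1.55 (1.54 to 1.56). It was picked out because the 2 libraries lay on opposite sides of 1. With 1 library per genotype the difference was not tested, and the intervals cover counting error only.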

How the results depend on the processing

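The share of N cells had a ratio above 1 under all 11 alternatives. The ratio ran from 1.16 with Nts at 2 times the next hormone to 2.21 at the limit of 5% of UMIs. Its interval included 1 with Nts at 2 times the next hormone and without the highest doublet scores (1.32, 0.986 to 1.78). The interval also included 1 as a share of hormone-dominant cells, in male-typed cells and without the cells with Sst at 1% or more. The counts of genes moved most. With at least 20 UMIs, 236 and 519 genes were higher and lower by class, 1328 and 2095 by library, and 126 listed genes passed 1.5-fold. In male-typed cells, of which NFKO had 13, these were 24 and 56, 137 and 252, and 50, and Reg4 (0.607), Zg16 (0.256), Ptprn (0.712), Lpl (0.910) and Muc2 (0.526) turned to lower in NFKO. With equal weight of cells 350 genes were lower by class and 1152 higher by library. Against L cells alone 50 and 57 genes were called, with Fabp1 at 1.43 and Pdx1 at 2.61 in WT, and against I cells alone 28 and 40, with Nnat at 1.18 in NFKO and Iapp at 2.24 in WT. Hes1 in WT had 0.679 without its top cell. Added after the data had been seen, cells with 10000 or more UMIs gave 266 higher genes by library, and a total without Gm42418, Gm26917, Lars2 and mitochondrial genes gave 284 higher and 1025 lower. Relative to the value reported, the median log2 ratio of all genes shifted by 0.11 with a total without the 7 hormones and mitochondrial genes (58.0% of called genes higher), by 0.17 with equal weight (62.2%), by -0.12 in the deep cells (27.9%) and by -0.15 without the ribosomal-RNA-like genes (21.7%), while size factors gave 47.5%, Nts at 2 times the next hormone 50.7% and omission of the top cell 52.3%. Of 1753 values of single genes under the alternatives, 1369 stayed near the value reported, 374 moved further and 10 reversed. The cause of these changes was not tested.

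No paired analysis was possible because each group has 1 library, which also means that no library was left out in turn. WT N cells, with 634244 UMIs, were the less deeply sampled: 3 UMIs, the limit for a gene at 0 there, are 4.73 CPM. Depth, ribosomal-RNA-like transcripts, sex and genotype differ together and cannot be told apart.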

Other observations

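Other gene lists gave the following values in N cells, as descriptions with no test; over all genes, 10.6% were at least 1.5 times as high in NFKO and 15.3% at most 1/1.5. Of 11 lipid and apolipoprotein genes counted, 5 were at least 1.5 times as high in NFKO and 0 at most 1/1.5, with a median log2 ratio of 0.57 beside -0.04 over all genes. They were the fatty acid binding protein gene Fabp5 (1.80, 1.60 to 2.03), lipoprotein lipase Lpl (3.74, 2.43 to 6.05), Apoa1 (5.44, 2.99 to 11.1), Apoc3 (2.73, 1.47 to 5.62) and Apoc2 (1 UMI in WT and 124 in NFKO, 31.6, 5.57 to 1257). In male-typed cells Lpl had a ratio of 0.910. Against the other hormone-dominant cells, Scd2 was at least 2 times as high in N cells of both libraries, and Fabp5 and Fabp1 at most 1/2.

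Of 6 other peptide and transmitter genes counted, 4 were at least 1.5 times as high in NFKO: Sct, Uts2b, Tac1, the gene of substance P (3.57, 1.88 to 7.60), and Tph1, the serotonin-forming enzyme of enterochromaffin cells (4.24, 2.48 to 7.88). By class, where 1.36% of all genes were higher and 2.86% lower, Vgf was higher in N cells (2.25 and 2.83 times) and Iapp and Ddc (0.196 and 0.183) were lower. Of 19 endoplasmic reticulum genes, 3 were higher in NFKO, among them Manf (1.63), and 3 lower, with a median of -0.04, and 0 were called by class. These counts moved with the setting, to 7 higher and 1 lower when all cells weighed the same, 0 and 5 in deep cells and 0 and 8 in male-typed cells. Of 3 Notch genes counted between libraries, Dll4 (0.648) was lower. By class, 0 of 24 FoxO targets were higher and Pdk4 and Fbxo32 were lower, 1 of 22 heat shock and immediate early genes, Hspb1, was higher, 1 of 10 BMP genes, Bambi, was lower, and of 4 genes of the pancreatic beta list Pdx1, Iapp and Abcc8 were lower.

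Marker lists of other cell types also differed between the libraries within N cells. Over all genes, 10.6% were at least 1.5 times as high in NFKO and 15.3% at most 1/1.5, with a median of -0.04. Of 9 Paneth markers counted, 7 were at least 1.5 times as high in NFKO and 0 at most 1/1.5, with a median of 0.92. Of 9 goblet markers 5 were higher and Guca2a was lower, with a median of 0.70, and in cells with 10000 or more UMIs 3 were higher and 3 lower. In male-typed cells 0 were higher and 4 lower, with a median of -0.49, and with each cell given the same weight 9 were higher and 0 lower. Of 6 absorptive markers 3 were higher and 1 was lower, with a median of 0.75. Without the 19 NFKO cells with Sst at 1% or more, 5 Paneth markers were higher and 0 lower, with a median of 0.62. The goblet list then had 3 higher and 2 lower, with a median of 0.53, and the absorptive counts stayed the same. Several Paneth defensin genes are close copies whose reads may be shared. The part of free RNA and of doublets in these values was not tested.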
